A study of Mus musculus with 8 samples.

Results

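The genes described here are those of the voltage-gated sodium and calcium channels and of the potassium channels of the mouse. They were chosen by name: every gene on the arrays whose symbol begins with Kcn, with Scn followed by a number and a or b, or with Cacn. The choice gave 135 of 36163 gene names, read by 196 distinct probes in 232 spots, of which 85 genes had 1 probe and 50 had several. RNA was measured in the mouse embryonic stem (ES) cell line E14Tg2A, of strain 129/Ola, as it was turned into neural cells. The 4 stages were undifferentiated ES cells kept in serum and LIF (0 days in vitro, DIV), epiblast-like aggregates (ELA, 2 DIV), neural progenitor cells (NPC, 6 DIV) and neural precursors (NPC/Neu, 10 DIV). From ELA onward the cells were in a defined medium with N2 and B27 supplements, from which B27 was left out in the last step. Each stage had 1 array of total RNA and 1 array of Ago-RNA, which is the RNA that came down with Argonaute proteins when a pan-Argonaute antibody (clone 2A8) was applied to the cytosolic fraction. Each array held RNA pooled from 3 independent sets of experiments of 1 cell line, so there were no replicates, and every difference below compares single pooled samples without a p-value.

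Ion channels are membrane proteins that let a chosen ion cross when the voltage, a ligand or a second messenger opens them. Voltage-gated sodium channels start the action potential, calcium channels turn voltage into calcium entry, and potassium channels set the resting voltage and end each spike. Each is built from a pore subunit, which conducts, and auxiliary subunits, which change where the pore goes and how it opens. Dividing stem cells do not fire action potentials, and the sets of channels that neurons use are acquired as they mature. Argonaute proteins carry microRNAs (miRNAs) to messages that pair with the miRNA's seed, so the share of a message that is found with Argonaute is one reading of its contact with the silencing complex.

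Values are log2 normalized intensities, compared for 1 probe at a time, because probes differ in how brightly they read. A value counted as above background where the scanner software marked the spot as well above background. Where only 1 side of a difference was above background the difference is a bound, taken against the higher of the dim signal and the lowest signal above background on that array (6.73 to 7.02 on the log2 scale), and is written "at least". A difference of 1 on the log2 scale, which is 2-fold, was used as the limit for counting. In probes printed in 10 spots, the SD over spots was 0.126 to 0.175 for a total RNA difference and 0.129 to 0.151 for E, and it reached 0.246 for total RNA differences in the dimmest of these probes. This SD covers the spots of 1 pair of arrays and not the spread between cultures. In bulk RNA, fewer cells of a type and less RNA per cell cannot be told apart.

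The stage markers followed the stage names in part. From ES to NPC/Neu all 6 ES markers were lower by at least 1, and all 5 NPC markers were higher. Of 4 primed epiblast markers 3 were lower by at least 1 from ELA to NPC, and Otx2 held its level (16.06 and 15.91). From NPC to NPC/Neu 2 of the 6 ES markers were higher again, among them Esrrb (9.59 and 11.55). Sox1, Pax6, Nes and Fabp7 read highest in NPC/Neu. The ES marker Zfp42 read 15.97, 12.36, 8.71 and 9.76 in total RNA from ES to NPC/Neu, the primed epiblast marker Fgf5 read 11.96, 14.78, 7.48 and 7.89, and the NPC marker Pax6 read 8.23, 8.13, 11.11 and 11.76. The log2 of the summed signal of 7 neuronal markers was 15.41, 15.42, 16.16 and 18.02, with Dcx above background from ELA onward. In ES cells Stmn2 (14.44) and Snap25 (13.41) were the brightest of the neuronal markers. Markers of other cell types were not all absent: the sum of 6 glial markers was 11.22, 13.34, 13.49 and 13.58, with S100b below background on every total RNA array. Most of that sum was Mbp (10.52, 13.17, 13.36 and 13.38), while Gfap read 7.82, 8.03, 7.67 and 7.85. The sum of 6 muscle markers was 13.30, 13.22, 10.58 and 11.35, with Myod1 and Myog below background on all 4, and its members went both ways: from ES to NPC/Neu Myh6 went from 12.98 to 7.62 and Myh7 from 9.86 to 10.97. The 3 endothelial markers summed to 10.33, 9.06, 8.96 and 9.20 with Cdh5 below background throughout, the 3 epithelial and endodermal markers to 8.36, 8.33, 8.67 and 8.40 with Afp and Alb below background throughout, and the 3 immune markers to 9.22, 8.64, 8.53 and 8.43. The ES Ago-RNA array was the brightest, with an upper quartile of raw signal of 3039 against 1060 to 1774 on the other 7 arrays.

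Of the 135 channel genes, 111 (82.2%) were above background on at least 1 of the 8 arrays, beside 77.8% of all gene names. The number on a single array ran from 73 on ELA total RNA to 93 on ES Ago-RNA, and 53 genes were above background on all 8. With the 1 probe used for each gene, total RNA showed 104 of them, and the other 7 (Cacna1d, Cacna2d4, Kcnh1, Kcnj15, Kcnq1, Kcnq3 and Kcnq5) were above background on Ago-RNA arrays alone, though a second Cacna1d probe passed in ELA total RNA (7.01). The 24 that were never above background were 3 sodium pore genes (Scn7a, Scn9a and Scn10a), 3 calcium pore genes (Cacna1c, Cacna1e and Cacna1f), the calcium gamma gene Cacng3 and 17 potassium channel genes, among them the inward rectifiers Kcnj1, Kcnj6 and Kcnj8. A gene read below background here was not detectable with its probes, which is not the same as absent.

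Over the whole course, from ES to NPC/Neu, 24 of 102 channel genes were higher in total RNA by at least 1 on the log2 scale, beside 16.9% of all genes tested, and 15 were lower, beside 16.2%. Of these, 13 of the higher and 6 of the lower are bounds, from genes below background at 1 end. Over all genes 760 of 4328 higher and 768 of 4137 lower were bounds, so bounds made up more of the channel counts. The calcium channel genes had the largest share of higher ones: 11 of 20 were higher and 1 was lower. Of the 11, Cacna2d3, Cacnb2, Cacnb4, Cacng2, Cacng4 and Cacng5 were bounds. Cacna1h, also among the 11, gave 0.04 with its other probe. Of the sodium channel genes 1 of 11 was higher and 2 were lower, and the potassium channel genes divided evenly, with 12 of 70 higher and 12 lower. The median over the 64 channel genes measured at both ends was 0.03, beside -0.05 for all genes. The differences between these shares were not tested.

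**Figure D1:**
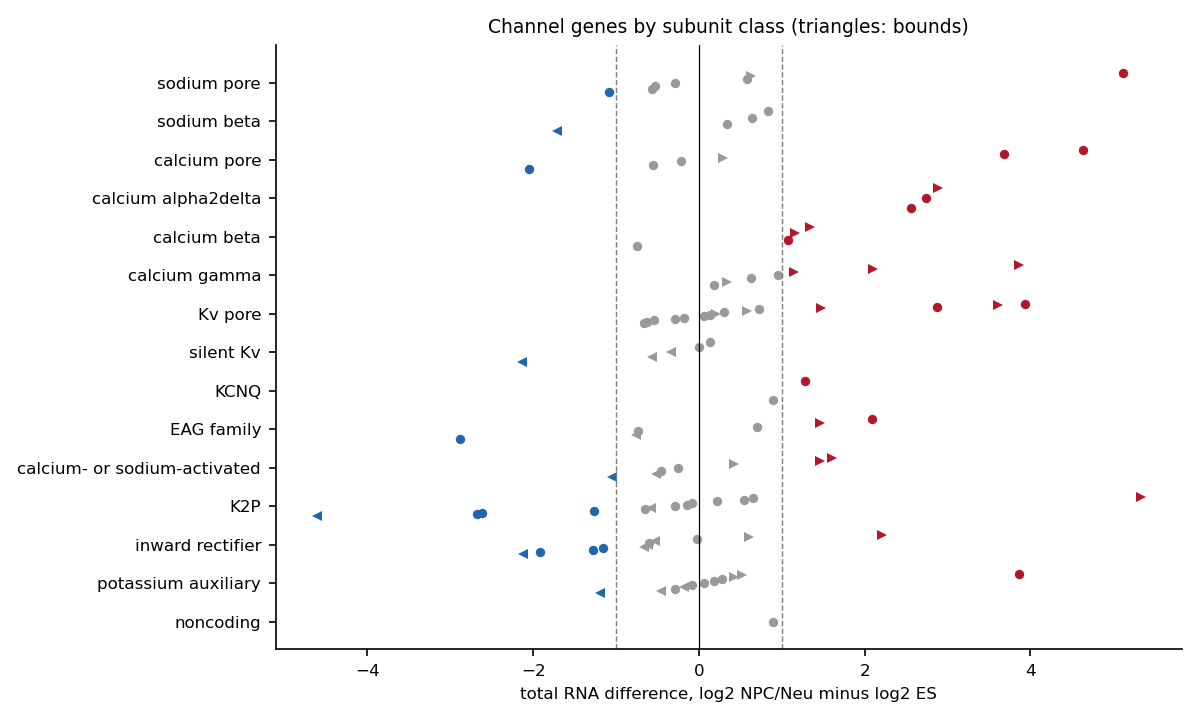
Difference in total RNA between NPC/Neu and ES cells (x axis, log2 NPC/Neu minus log2 ES) for each channel gene above background on at least 1 of the 2 arrays, by subunit class (y axis); circles are measured differences, triangles are bounds that point the way the difference could be larger, and dashed lines mark -1 and 1. All 3 calcium alpha2delta genes lie to the right of 1, and 4 K2P and 4 inward rectifier genes lie to the left of -1.

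Among the sodium pore genes, 7 of 10 were detected and Scn3a, the sodium channel gene known from the embryonic brain, moved most. Scn3a read 7.32, 7.25, 9.28 and 12.43 from ES cells to NPC/Neu. It was level across the first transition and climbed at both later ones, to 34.6-fold over ES cells, and a second probe gave 7.16, 6.79 (below background), 9.25 and 12.34. The muscle sodium channel gene Scn4a read 9.72, 9.54, 8.74 and 8.63, which was 2.12-fold lower at the end and the only other member of the class past the limit. The muscle markers given above went both ways over the same course, and their part in this was not tested. Scn1a, a channel gene of central neurons, read 7.51, 8.28, 7.97 and 8.09. Scn8a, which serves the initial segment of axons, read 13.40, 13.63, 13.35 and 13.12. Both stayed within 1 of their ES level. Scn11a was below background in ES cells and ELA and read 7.05 and 7.37 later.

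Scn2a1, the other early channel gene of central neurons, gave a different answer with its coding probe than with its 3′ UTR probes. The probe selected by the rule lies in the coding sequence (chr2:65521868-65521927, plus strand, mm9) and read 8.39, 7.72, 7.88 and 7.86. The other 2 lie in the 3′ UTR: one was below background in ES cells and ELA and then read 7.09 and 8.74, at least 1.99 above ES cells on the log2 scale, and the other, printed in 10 spots, was below background until it read 7.65 ± 0.17 (SD over spots, n = 10) in NPC/Neu. Kcna5, a Kv channel gene, showed a like split. Its coding probe (chr6:126483373-126483432, minus strand, mm9) read 8.91, 8.62, 8.60 and 8.37, while its 3′ UTR probe was below background in ES cells and ELA, then 9.75 in NPC and 8.44 in NPC/Neu. The sequences of these coding probes follow, as the level and the climbing profile of a gene depended on which stretch of the message was read; those of Cacna1g and Kcnmb4, whose coding and 3′ UTR probes moved in the same direction, are given with them (5′ to 3′, no capitals used).
Scn2a1: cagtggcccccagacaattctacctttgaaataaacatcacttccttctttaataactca
Kcna5: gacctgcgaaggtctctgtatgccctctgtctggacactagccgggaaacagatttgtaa
Cacna1g: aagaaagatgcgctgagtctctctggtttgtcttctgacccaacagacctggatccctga
Kcnmb4: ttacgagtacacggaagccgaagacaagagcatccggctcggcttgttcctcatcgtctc

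**Figure D2:**
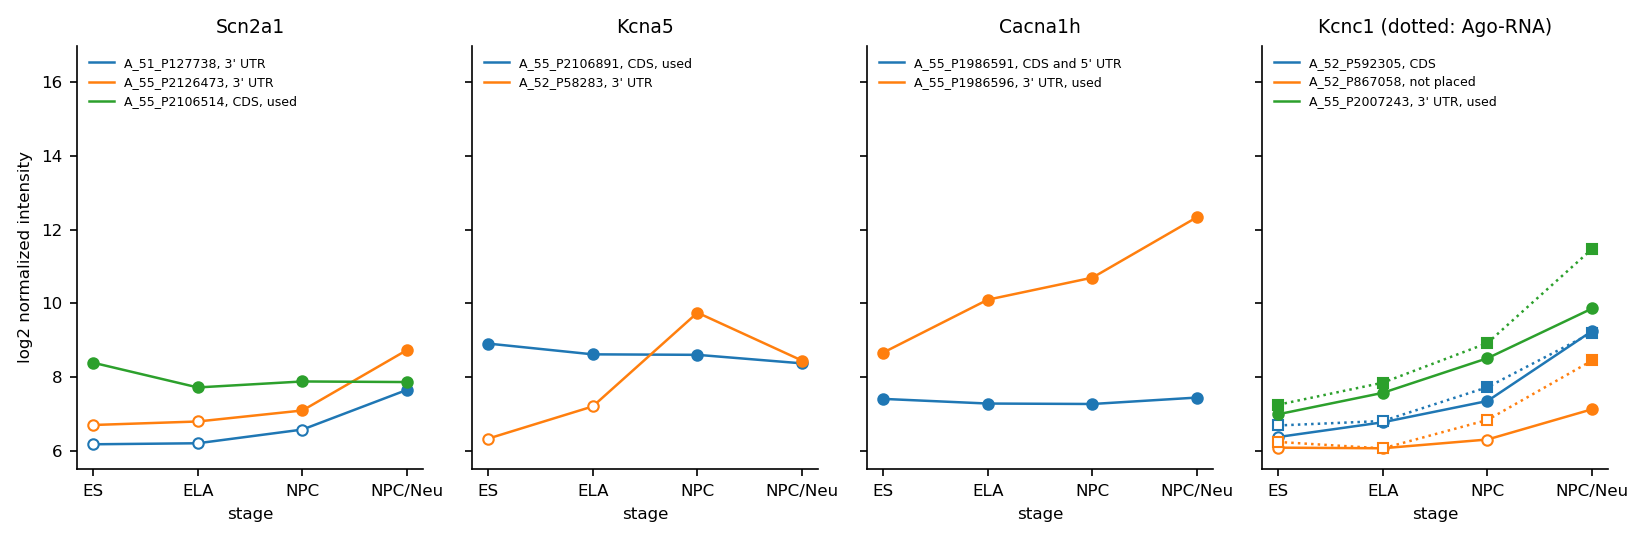
Log2 normalized intensity (y axis) of every probe of Scn2a1, Kcna5, Cacna1h and Kcnc1 at the 4 stages (x axis), 1 colour a probe, with circles and solid lines for total RNA, squares and dotted lines for Ago-RNA (Kcnc1 panel only) and hollow symbols where the spot was not above background. In the panels of Scn2a1, Kcna5 and Cacna1h some probes climb while another stays level, and for Kcnc1 the 3′ UTR and coding probes read 11.48 and 9.20 in Ago-RNA at NPC/Neu.

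The 4 sodium beta genes, whose products bind the pore and act in cell adhesion, were all detected. Scn2b read 7.29, 9.51, 8.51 and 8.12 in total RNA. Its rise of 2.22 from ES cells to ELA was the largest of any channel gene at that transition, and NPC/Neu ended 0.83 above ES cells. Scn3b read 11.36, 12.39, 11.66 and 11.70, highest in ELA. Scn4b read 7.40, 7.18, 7.81 and 8.05.

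Of the 10 calcium pore genes, those of low-voltage-activated (T-type) channels carried the increases. Cacna1g read 7.91, 9.15, 12.68 and 12.54. It gained at each of the first 2 transitions and then held level, 24.9-fold above ES cells, and its 3′ UTR probe gave 7.54, 8.60, 12.39 and 12.33. Cacna1h read 8.66, 10.10, 10.70 and 12.34 with its 3′ UTR probe, 12.8-fold higher at the end, but 7.41, 7.28, 7.27 and 7.44 with a probe at the 5′ end of the message. The third T-type gene, Cacna1i, read 8.41, 8.37, 8.12 and 8.20 and stayed level. The skeletal muscle L-type gene Cacna1s read 9.28, 8.72, 7.20 and 7.23, a drop of 4.13-fold that came mostly between ELA and NPC. Cacna1a, the P/Q-type gene of nerve terminals, read 10.48, 9.65, 9.39 and 9.93. The N-type gene Cacna1b passed background in total RNA only at NPC/Neu (7.04), and the L-type gene Cacna1d only in ELA (7.01), with a probe other than the one used.

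The auxiliary calcium genes moved more evenly upward. All 3 alpha2delta genes that could be compared were higher at NPC/Neu; their products bring the pore to the membrane and to synapses. Cacna2d1 read 10.44, 11.31, 9.26 and 13.18, so that a drop of 2.06 into NPC came before a gain of 3.92 into NPC/Neu, the largest of any channel gene at the last transition. Cacna2d2 read 9.86, 10.65, 11.60 and 12.42, a steady climb to 5.91-fold. Cacna2d3 was below background in ES cells and ELA and read 8.31 and 9.63 later, at least 7.41-fold higher. Among the beta genes, which bind the pore inside the cell, Cacnb3 read 11.31, 11.93, 12.26 and 12.39 and was 2.11-fold higher. Cacnb2 and Cacnb4 were below background in ES cells and read 8.08 and 8.07 at NPC/Neu, and Cacnb1 read 8.81, 8.82, 8.27 and 8.06. Of the gamma genes, several of which also accompany AMPA receptors, Cacng4 was below background in ES cells and read 9.77 in NPC and 10.61 in NPC/Neu, at least 14.6-fold higher, with its ELA total RNA value left out because that spot was irregular. Cacng2 first passed background in NPC (7.26) and read 8.84 in NPC/Neu. Cacng5 read 7.88 in NPC/Neu alone, and Cacng7 read 12.26, 13.19, 12.79 and 13.21. The gamma gene that differed least was Cacng6, at 9.02, 9.53, 8.92 and 9.20.

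**Figure D3:**
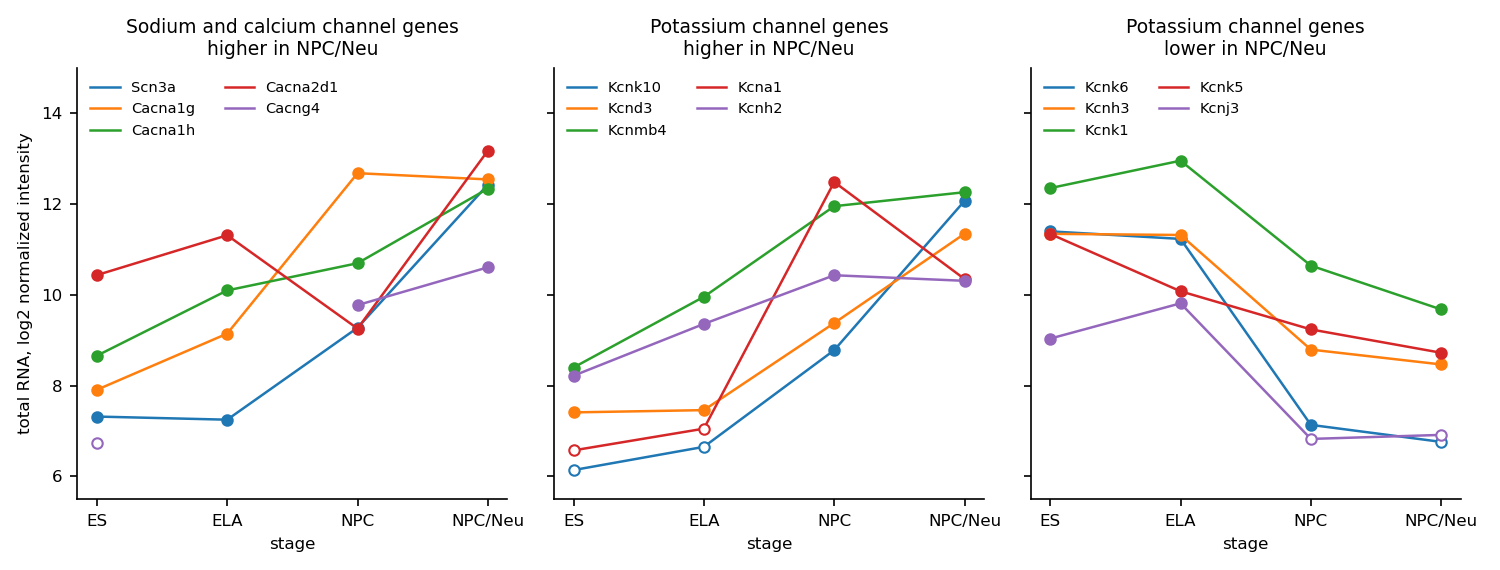
Total RNA (y axis, log2 normalized intensity, 1 array a point) at the 4 stages (x axis) for sodium and calcium channel genes higher in NPC/Neu than in ES cells (left), potassium channel genes higher (middle) and potassium channel genes lower (right); hollow circles were not above background and the ELA value of Cacng4 is missing. Cacna1g and Kcna1 climb most between ELA and NPC, Scn3a and Kcnk10 most between NPC and NPC/Neu, and Kcnk6 goes from 11.23 in ELA to 7.14 in NPC.

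The genes of Kv pores make the delayed rectifiers and A-type channels that end and space action potentials. With the 1 probe used for each gene, 4 of 15 were higher at NPC/Neu and none lower. A second Kcna7 probe gave -1.15 from ES cells to NPC/Neu, beside 0.13 with the probe used. Kcnd3, an A-type gene, read 7.41, 7.46, 9.38 and 11.35, a gain of 15.3-fold in near equal steps after ELA, and its coding probe stayed below background in total RNA. Kcnd2 passed background only at NPC/Neu (8.21), at least 2.77-fold above ES cells. Kcna1 was below background in ES cells and ELA, read 12.49 in NPC and came back to 10.35 in NPC/Neu. Its gain into NPC, at least 5.44 on the log2 scale, was the largest of any channel gene at that transition, and the drop of 2.14 that followed was also the largest at the last one. Kcnc1, a gene of fast-spiking Kv3 channels, read 6.99, 7.57, 8.51 and 9.86, 7.33-fold higher at the end. Kcna4 read 14.03, 14.20, 13.70 and 13.40 and Kcna6 10.52, 10.45, 10.49 and 10.83, both within 1 of their ES level, though a second Kcna6 probe climbed through 8.09, 9.44, 10.33 and 10.27. The silent Kv genes, whose products only modify other Kv pores, had none higher of 5. Kcns3 read 8.93, 8.20 and 7.39 and fell below background at NPC/Neu, at least 4.39-fold lower, and Kcng1 peaked in NPC with 7.58, 7.86, 9.28 and 7.59.

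The KCNQ genes make the M current, which steadies neurons near threshold. Of these Kcnq1, Kcnq3 and Kcnq5 never passed background in total RNA. Of the EAG family genes, Kcnh2 (the ERG channel) read 8.22, 9.36, 10.43 and 10.31 and was 4.26-fold higher. Kcnh5 passed background from NPC onward with 8.05 and 8.20. Kcnh3 read 11.35, 11.32, 8.79 and 8.47, 7.35-fold lower, nearly all of it between ELA and NPC. Kcnh8 peaked in ELA with 9.02, 10.52, 7.18 and 8.29. The genes of calcium-activated channels divided: Kcnma1 (BK) passed background only at NPC/Neu (8.27) and Kcnn3 (SK3) read 9.05 and 8.34 at the last 2 stages from below background. Kcnn4 read 8.06, 8.01 and 7.06 and was then below background. Kcnn2 (SK2), printed in 10 spots, read 9.52 ± 0.14, 9.88 ± 0.22, 8.40 ± 0.08 and 9.06 ± 0.22 (SD over spots, n = 10 each), lowest in NPC.

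The K2P genes make the leak channels that hold the resting voltage. From ES cells to NPC/Neu they held the largest gain and the largest loss of the whole set, both of them bounds. Kcnk10 (TREK-2) was below background in ES cells and ELA and read 8.78 in NPC and 12.07 in NPC/Neu, at least 40.3-fold above ES cells. Kcnk6 (TWIK-2) read 11.40, 11.23 and 7.14 and was below background in NPC/Neu, at least 24.4-fold below ES cells, and dropped by 4.10 on the log2 scale between ELA and NPC. Kcnk1 (TWIK-1) read 12.35, 12.96, 10.64 and 9.68 and Kcnk5 (TASK-2) 11.34, 10.08, 9.24 and 8.72, which were 6.39-fold and 6.14-fold lower. Kcnk13 ended 1.27 below ES cells. Kcnk5 was also the 1 channel gene lower by over 1 from ES cells to ELA. In all, 1 of 13 K2P genes was higher and 4 were lower.

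Inward rectifier genes, whose channels pass potassium best near rest, had 1 of 11 higher and 4 lower at NPC/Neu. Kcnj5, a G protein-gated channel gene, was below background in ES cells, 8.15 in ELA, below background in NPC and 8.95 in NPC/Neu. Its partner Kcnj3 read 9.04 and 9.81 and was below background at both later stages, at least 4.35-fold lower. Kcnj12 peaked in ELA with 9.65, 11.06, 8.21 and 7.74, Kcnj10, known from glia, read 9.65, 9.13, 8.03 and 8.37, and Kcnj4 read 9.79, 9.53, 10.16 and 8.63. Kcnj2, a strong inward rectifier, was above background in ES cells (7.40) and NPC (7.83) alone and was at least 2.05-fold lower in NPC/Neu than in NPC. Among the potassium auxiliary genes Kcnmb4, the neuronal BK beta subunit, read 8.40, 9.96, 11.95 and 12.26 with its 3′ UTR probe, 14.6-fold higher, and 7.58, 7.93, 9.48 and 9.27 with its coding probe. Kcnip2, which assists Kv4 channels, read 7.98, 8.66 and 7.00 and was below background in NPC/Neu. The noncoding RNA Kcnq1ot1, which lies antisense to Kcnq1 and takes part in imprinting, read 11.07, 10.58, 11.39 and 11.97.

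By transition, the median of the set went up, down and up again. From ES cells to ELA 11 of 84 channel genes were higher, beside 4.89% of all genes, and 1 was lower, beside 4.59%, and the median was 0.32, beside 0.03. From ELA to NPC 11 of 88 were higher, beside 10.7%, and 18 were lower, beside 9.77%, with a median of -0.48, beside -0.04. From NPC to NPC/Neu 14 of 93 were higher, beside 6.1%, and 4 were lower, beside 4.36%, with a median of 0.12, beside -0.03. Between ELA and NPC 15 of 60 potassium channel genes were lower, 2 of 16 calcium channel genes and 1 of 11 sodium channel genes, and the difference between these shares was not tested. Adjacent transitions share an array, so a high or low ELA or NPC array enters 2 of these counts with opposite sign.

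**Figure D4:**
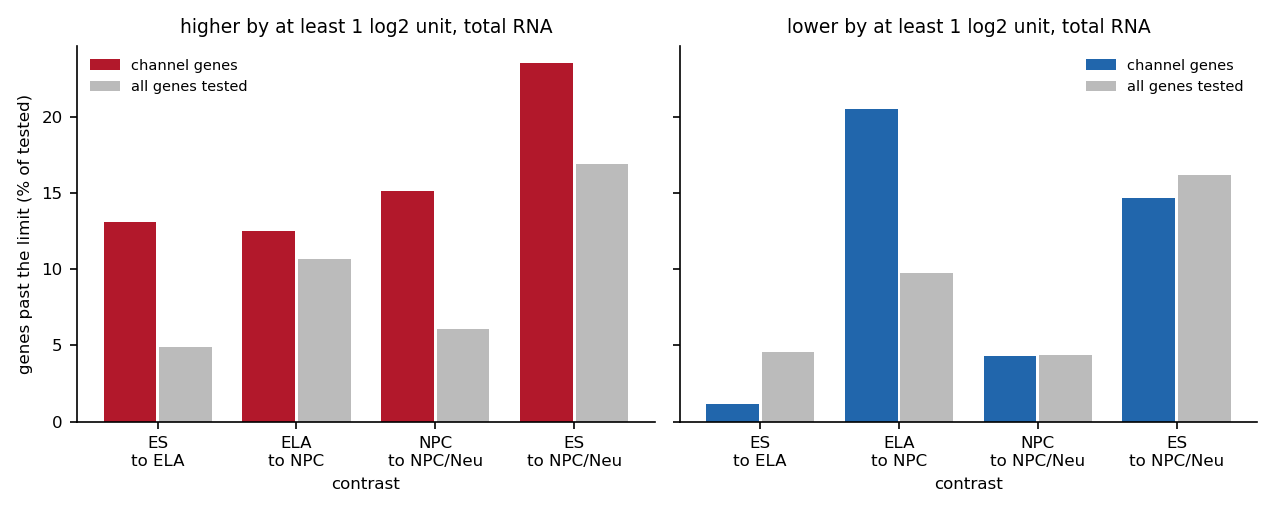
Share of genes (y axis, percent of those tested) that were higher (left) or lower (right) in total RNA by at least 1 on the log2 scale in each contrast (x axis), for the channel genes (coloured bars) and for all genes (grey bars). The channel genes stand above all genes for higher values from ES to ELA (13.1% and 4.89%) and for lower values from ELA to NPC (20.5% and 9.77%).

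Proteins that act with these channels were read from a list of 33 genes (HCN and NALCN channels, channel-anchoring ankyrins and spectrin, sodium pumps, chloride carriers, calmodulins, synaptic proteins and regulators of neuronal genes). From ES cells to NPC/Neu 11 of 31 were higher and 2 were lower, beside 16.9% and 16.2% of all genes, with a median of 0.91 over 26 measured, beside -0.05. Cntnap2, which places Kv1 channels along axons, read 7.84, 9.24, 13.68 and 11.55, and Slc12a5, the chloride exporter of neurons, 8.73, 9.63, 10.66 and 11.78. The 2 lower ones were Spnb4 (12.66, 11.68, 9.54 and 8.83), a spectrin of the axon initial segment, and Rest (14.51, 13.60, 12.44 and 12.09), a repressor of neuronal genes.

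Ago enrichment, E, is the log2 Ago-RNA value minus the log2 total RNA value of the same probe at the same stage. After normalization it is relative to the other RNAs on the 2 arrays, so an E of 0 is the level of a typical gene and not an absence of Argonaute. Over the channel genes measured on both arrays the median E was 0.13, -0.02, 0.18 and 0.23 from ES to NPC/Neu (77, 67, 71 and 82 genes), beside 0.03, -0.03, 0.05 and 0.08 over all genes. Taking the scanner's processed signal and scaling each array by its 75th percentile, which changes both the signal and the scaling, moved the median of all genes to -0.29, -0.16, -0.10 and -0.10 and that of the channel genes to -0.23, -0.11, 0.03 and -0.03, so the sign of these medians depended on the processing. With the same signal under quantile scaling the channel genes were below all genes in ELA (-0.047 and -0.037). Few channel genes lay past 1 on either side. With the 1 probe used for each gene, 1 of 96 in ES cells was at or above 1, beside 10.5% of all genes, and 5 were at or below -1, beside 11.8%. In ELA the counts were 2 and 3 of 84, beside 4.04% and 3.26%. In NPC they were 2 and 3 of 88, beside 5.75% and 6.52%, and in NPC/Neu 10 and 4 of 92, beside 11.8% and 12.7%.

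**Figure D5:**
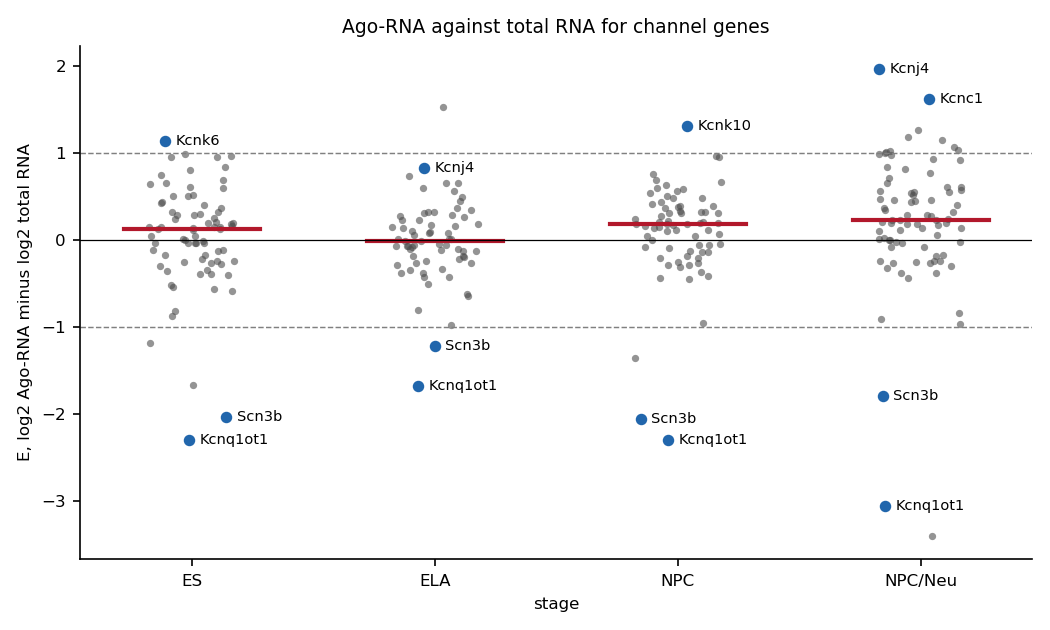
Ago enrichment E (y axis, log2 Ago-RNA minus log2 total RNA) of each channel gene above background on both arrays at each stage (x axis; points are spread sideways for view), with the median as a red bar and dashed lines at -1 and 1. Most genes sit between the dashed lines, and Kcnq1ot1 and Scn3b lie below -1 at all 4 stages.

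Both genes that were low at every stage kept that place. Kcnq1ot1 had Ago-RNA values of 8.78, 8.90, 9.09 and 8.91 against the total RNA given above, so that E was -2.29, -1.68, -2.30 and -3.06. A second probe gave -1.23 and -0.89 in ES cells and ELA and was below background in Ago-RNA later. Kcnq1ot1 is the 1 noncoding RNA of the set; the immunoprecipitation began from the cytosolic fraction, and the methods name no fractionation for total RNA. Scn3b had Ago-RNA values of 9.32, 11.17, 9.60 and 9.90 and E of -2.03, -1.22, -2.05 and -1.80. Kcnj13, an inward rectifier gene of epithelia, read 8.46, 8.31, 8.84 and 8.44 in total RNA with the probe used. That probe passed background in Ago-RNA only in NPC (7.48), where E was -1.36. A second Kcnj13 probe gave E of -0.81 in NPC. In ES cells Kcnk13 (-1.66) was low as well, and in ELA Scn2b (-0.98).

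The highest values changed hands from stage to stage. In ES cells Kcnk6 led among the probes used, with 12.53 in Ago-RNA and 11.40 in total RNA and E of 1.13, ahead of Cacna2d1 (0.99) and Cacna1g (0.96). Other probes gave higher values in ES cells for Cacna1h (1.34), Cacna2d1 (1.29) and Scn3a (1.26). In ELA Kcnj4 was among the highest, with 10.36 and 9.53 and E of 0.83, beside Kcnn2 (0.74) and Kcnc2 (0.65). In NPC it was Kcnk10, with 10.09 and 8.78 and E of 1.31, followed among the genes named here by Kcna4 (0.95) and Kcnn2 (0.76). In NPC/Neu it was Kcnj4, with 10.60 and 8.63 and E of 1.97, followed by Kcnc1 (1.62) and Kcnn3 (1.27). In NPC/Neu the 5 measured genes of calcium- or sodium-activated potassium channels had E of 0.20 to 1.27, with a median of 0.84, and the 4 calcium beta genes had E of -0.38 to 0.14, with a median of -0.12. These values are of the probe used for each gene, and other probes gave 0.29 for Kcnn3 and 0.59 for Kcnma1. Higher medians were those of the 3 measured sodium beta genes (0.93) and the 3 alpha2delta genes (0.92).

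E could also depend on the probe. In Kcnc1 the 3′ UTR probe gave 1.62 and the coding probe -0.05 in NPC/Neu, and in Kcna6 the probe chosen by the rule gave -0.29 and a 3′ UTR probe 1.13. Of 31 channel genes with at least 2 probes measured in some quantity, 8 had probes that differed by over 1. These were 5 of 31 in E and 5 of 20 in total RNA from ES to NPC/Neu. Bounds were not counted, so the split of Scn2a1 in total RNA is not among the 8. Among the widest were Cacna1h (3.65, total RNA) and Kcnmb4 (2.18, total RNA).

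Changes of E between stages were small for most channel genes. From ES cells to ELA the median was -0.01 over 64 genes, with 2 at or above 1, beside 9.43% of all genes, and 4 at or below -1, beside 7.63%. Scn2b went from 0.74 to -0.98, since its total RNA gained 2.22 while its Ago-RNA went from 8.03 to 8.53. Kcnn4 (-1.10), Cacna1g (-1.08) and Cacna1h (-1.07) changed the same way, and Kcnk13 (1.33) the other. Scn2a1 changed by 0.93. From ELA to NPC the median was 0.15 over 56 genes, and 1 gene was past 1 upward, beside 1.95%, and none downward, beside 3.63%. That gene was again Scn2b, at 1.46, followed by Kcna4 (0.72); the lowest were Scn3b (-0.84), Kcnt2 (-0.71) and Kcnq1ot1 (-0.62). From NPC to NPC/Neu the median was 0.07 over 66 genes, with 2 upward, beside 2.32%, and 1 downward, beside 4.6%. Kcnj4 (1.37) and Kcnc1 (1.21) went up, with Cacna2d2 (0.87) next. The changes of Kcnc1 here and from ES cells were read with its 3′ UTR probe, and its coding probe gave E of -0.05 in NPC/Neu. Scn8a (-0.83) was among those that went down without passing the limit. From ES cells to NPC/Neu directly 3 of 62 were past 1 upward (Kcnk13, Kcnc1 and Kcnj4), beside 4.33%, and 1 downward, beside 5.51%, with a median of 0.15.

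Channel messages are long, and their length went along with E less than in the array as a whole. On GENCODE transcripts of the same build, 134 of the 135 genes were placed, with a median transcript length of 3686.5 bases and a median 3′ UTR of 1638.5, beside 2456 and 816 for all placed genes. Across genes, Spearman's rho of E with transcript length was 0.09, 0.05, 0.02 and 0.02 over 76, 66, 70 and 81 channel genes from ES to NPC/Neu. Over all genes it was 0.56, 0.34, 0.34 and 0.46 (13606 to 14505 genes). These are descriptions across genes that share 1 pair of arrays at each stage, and the difference between them was not tested.

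As Argonaute is led by miRNAs, the 3′ UTRs were searched for matches to the seeds of 3 families: that with the seed AAGUGCU, of pluripotent cells, let-7, of differentiated cells, and miR-9, of neural cells. The mature sequences are from RefSeq (GRCm38.p6), with the seed (bases 2 to 8) in capitals.
miR-294-3p: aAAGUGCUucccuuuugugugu
miR-302b-3p: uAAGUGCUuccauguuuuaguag
let-7a-5p: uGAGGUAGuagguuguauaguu
miR-9-5p: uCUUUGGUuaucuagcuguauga

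The first 2 share their seed, so they count as 1 family. The words searched, on the message strand alone, were the reverse complements of the seeds: AGCACTT for the AAGUGCU family, CTACCTC for let-7 and ACCAAAG for miR-9. At least 1 match was held by 12 of 134 channel genes (8.96%) for the AAGUGCU family, beside 12.9% of all placed genes, by 17 (12.7%) for let-7, beside 8.40%, and by 22 (16.4%) for miR-9, beside 2220 of 20190. The channel 3′ UTRs searched were longer (median 1638.5 bases, beside 816), and these shares were not adjusted for length. In ES cells the median E was -0.34 over the 5 channel genes with an AGCACTT match that were measured and 0.13 over the rest, beside 0.37 and 0.12 over all genes. Among the 5 were Kcnf1 (-0.04), Scn1a (0.41) and Scn8a (-0.34). For let-7 in NPC/Neu the medians were 0.19 over 11 channel genes with a match and 0.26 without, beside 0.38 and 0.20, and for miR-9 they were 0.30 over 14 and 0.23, beside 0.42 and 0.19. With so few channel genes in each group these medians carry little weight.

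The AGCACTT matches of Kcna1, which gained most between ELA and NPC, and of Scn8a, the middle value of the 5, are shown with the flanking bases of the message in lower case and the match in capitals. They lie at chr6:126589733-126589761 (minus strand) and chr15:100873073-100873101 (plus strand) in mm9.
Kcna1: ctgtcagctatAGCACTTcgcagatctct
Scn8a: cttgcagtagaAGCACTTtggatgtaatc

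Scn8a had E of -0.34, 0.14, 0.39 and -0.43 from ES to NPC/Neu. Kcna1, which also has a let-7 and a miR-9 match, could be measured in NPC (0.12) and NPC/Neu (0.61). A match is a word in the sequence and not a measured site.

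The promoters of the genes that moved together were compared by their CpG count, the number of C followed by G, in windows of 300 bases that begin upstream of the RefSeq start and end just past it (GRCm38.p6; the highest of a gene's windows). Of the 135 channel genes 99 matched the table. Their median was 15, beside 8 for all 27025 genes in it. The genes higher in NPC/Neu than in ES cells had a median of 27.5 (18 matched, range 10 to 48), those lower a median of 10 (12 matched, range 4 to 41), and those never above background a median of 9 (21 matched). The GC box GGGCGG, on either strand, was held by 83.3% of the higher, 66.7% of the lower and 57.6% of all matched channel genes, beside 38.2% of all genes; it can hold 1 CpG itself. The TATA word TATAAA, on either strand, was in none of the higher, the lower or the never detected genes, in 7.07% of channel genes and in 15.7% of all. These counts describe the genes and were not tested. A promoter near the median of each group is shown with every CpG in capitals, Kcnd3 (higher; chr3:105451640-105451939, plus strand, 25 CpG) and Kcnj3 (lower; chr2:55435720-55436019, plus strand, 10 CpG).
Kcnd3: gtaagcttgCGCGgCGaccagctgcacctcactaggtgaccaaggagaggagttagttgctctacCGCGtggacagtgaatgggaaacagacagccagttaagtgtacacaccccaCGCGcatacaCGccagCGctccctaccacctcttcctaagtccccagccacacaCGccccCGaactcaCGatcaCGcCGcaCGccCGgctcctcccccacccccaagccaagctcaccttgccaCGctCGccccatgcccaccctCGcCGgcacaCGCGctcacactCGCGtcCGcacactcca
Kcnj3: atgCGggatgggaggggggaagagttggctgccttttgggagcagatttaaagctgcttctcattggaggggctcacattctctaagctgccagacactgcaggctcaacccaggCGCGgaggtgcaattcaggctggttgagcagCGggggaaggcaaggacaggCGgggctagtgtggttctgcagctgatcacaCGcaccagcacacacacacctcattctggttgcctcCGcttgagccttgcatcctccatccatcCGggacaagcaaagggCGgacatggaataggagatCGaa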

How the data were processed

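The authors hybridized cyanine-3 cRNA to 1-colour mouse 60-mer arrays (8 on 1 slide) and deposited the scanner's spot intensity values, read with Agilent Feature Extraction, with probe positions in mm9. The submitters' processing notes name version 9.1 of that software and limma, whereas the file headers name a later version. The labels and the study's methods give different amounts of labeled RNA. Background was corrected here by normexp with an offset of 50, which holds back the folds of dim genes. Quantile normalization on the log2 scale across the 8 arrays followed (limma 3.58.1, R 4.3.3), without the irregular spots (125 to 523 of 59305 an array), and then the spots of each probe were averaged. No spot was saturated, and 53.4% to 61.2% of spots an array were above background; the number of arrays limits the precision.

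For 1 gene the probe above background on the most arrays was used, ties going to the brighter. Genes named are the 5 highest and 5 lowest of each total RNA contrast, the 4 at each end for E and 3 for its change at each of the 3 transitions, the ends of each class, every detected sodium and calcium pore gene, the noncoding gene and the 3 widest probe disagreements. Some genes that this rule names are not reported here. Others named (second probes, further members of a class, genes with seed matches) were chosen after their values were seen. The members, gene lists and tests were chosen with earlier results of these data known. The counting was tested on simulated data. Probes were placed by exact match to GENCODE vM1 protein-coding transcripts. Alternatives were another offset, the processed signal with quantile or 75th percentile scaling, quantile scaling within each RNA kind, the mean over detected probes and stricter detection. With 1 array in each condition no replicate could be left out.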

Additional observations from a re-analysis of the deposited data

How the results depend on the processing

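With the scanner's processed signal the folds of dim genes are not held back by the offset. Quantile scaling of that signal put 20 channel genes higher and 2 lower from ES to ELA (11 and 1 in the report), 30 lower from ELA to NPC (18), 23 higher and 7 lower from NPC to NPC/Neu (14 and 4) and 25 lower from ES to NPC/Neu (15). Scaling it by the 75th percentile gave 19 and 2, 31, and 22 for those higher from NPC to NPC/Neu, and median E of -0.23 in ES cells, 0.028 in NPC and -0.034 in NPC/Neu. Quantile scaling within Ago-RNA and within total RNA gave a median E of 0.19 in ELA and 0.34 in NPC. With genes above background on both arrays alone, 6 of 66 were higher from ELA to NPC (11). From ES to NPC/Neu 11 of 64 were then higher and 9 lower (24 and 15). This setting leaves out the bounds. Over all genes from ES to NPC/Neu these were 760 of 4328 higher and 768 of 4137 lower, with 21270 genes measured. The other counts were within 1.5 times the reported count. Over the reported processing and its alternatives the channel genes' median total RNA difference ran from 0.30 to 0.41 from ES to ELA, from -0.66 to -0.46 from ELA to NPC, from 0.12 to 0.301 from NPC to NPC/Neu and from 0.03 to 0.18 from ES to NPC/Neu, and their median change of E from -0.08 to 0.10 from ES to ELA and above 0 at the other 3 contrasts. No replicate spread was at hand to judge shifts of a median. The 75th percentile scaling moved the median of all genes to -0.21 from ELA to NPC and -0.23 from ES to NPC/Neu. Of 625 values for single genes, all past 1 in the reported processing, 24 no longer passed 1 and none changed sign. Part of these could not differ. Stricter detection leaves measured values as they are, and the mean over detected probes does so for genes with 1 probe. With that mean E of Kcnc1 in NPC/Neu was 0.97. No paired analysis was possible because each condition had 1 array, which also left no replicate to leave out. Genes near background have the widest spot SD, so their differences are the least firm.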
